A study of Sus scrofa with 21 samples.

Results

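Littermate pigs were compared with unrelated pigs of their own breed to ask which blood genes resemble each other within litters. Of the 21 pigs with an array, 20 have a littermate from the same sow among the arrays, which gives 5 littermate pairs in DD pigs and 5 in LW pigs. The pairs were taken from the study's list of animals, not from measured values. They are DD_01 with DD_10, DD_06 with DD_11, DD_08 with DD_21, DD_13 with DD_23, DD_16 with DD_19, LW_04 with LW_09, LW_05 with LW_15, LW_07 with LW_18, LW_12 with LW_24 and LW_14 with LW_22. LW_02 has no littermate here and enters unrelated pairs only. In the test of single genes it counts as a litter of its own. All other pairs within a breed, 40 in DD pigs and 50 in LW pigs, are pigs of different sows and are called unrelated below. In DD pigs this means only a different dam, because the line has been kept inbred and its litters share ancestry.

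The DD pigs (SLAdd, n = 10) are a minipig line homozygous for 1 haplotype of the swine leukocyte antigen complex, and the LW pigs (Large White, n = 11) are a commercial breed that served as controls. All pigs had free access to the same standard diet and were bled at 60 days of age, and the labels name no other treatment. Total RNA of whole blood was labelled with a single dye and hybridized to a custom pig oligonucleotide array, with 1 array per pig on 3 chips. Littermates were never on 1 chip.

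Pigs of a litter share a dam, a sire in most breeding schemes, the uterus, the milk and the pen, and inherit overlapping sets of alleles. A gene whose level in blood is set by an inherited variant, by maternal factors or by the mix of circulating cells can therefore lie closer between littermates than between other pigs. Whole blood RNA mixes red cell precursors, platelets and all white cells, so fewer cells of a type and less RNA per cell cannot be told apart.

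The share of probes well above background ran from 44.7% to 63.8% over the arrays and no probe was saturated. Precision is set by the 21 arrays and 10 littermate pairs. Of 27 markers of red cells, T cells, B cells, monocytes, neutrophils, platelets and natural killer cells, 24 were tested and 21 of them had a mean percentile above 50 among the genes of the array. The levels below are log2 intensities from the deposited quantile-normalized matrix, with the chip effect removed and breed kept. Levels of different genes on this scale are not comparable with each other.

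Over the whole blood profile, littermates were not closer to each other than unrelated pigs. The mean absolute difference over 11341 genes was 0.434 ± 0.077 log2 units (SD, n = 5 pairs) between DD littermates and 0.423 ± 0.099 (SD, n = 40 pairs) between unrelated DD pigs. In LW pigs it was 0.382 ± 0.102 (SD, n = 5 pairs) between littermates and 0.364 ± 0.076 (SD, n = 50 pairs) between unrelated pigs. Both ranges of littermate differences, 0.342 to 0.518 in DD and 0.287 to 0.537 in LW, lay inside those of the unrelated pairs, 0.266 to 0.649 and 0.251 to 0.550. With the breeds weighted equally, the means were 0.408 for littermates and 0.394 for unrelated pairs (two-sided exact permutation over all 46656 pairings of pigs on different chips, p = 0.437). Each pig enters several pairs, so pairs are not independent and the test was made over pairings.

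**Figure D1:**
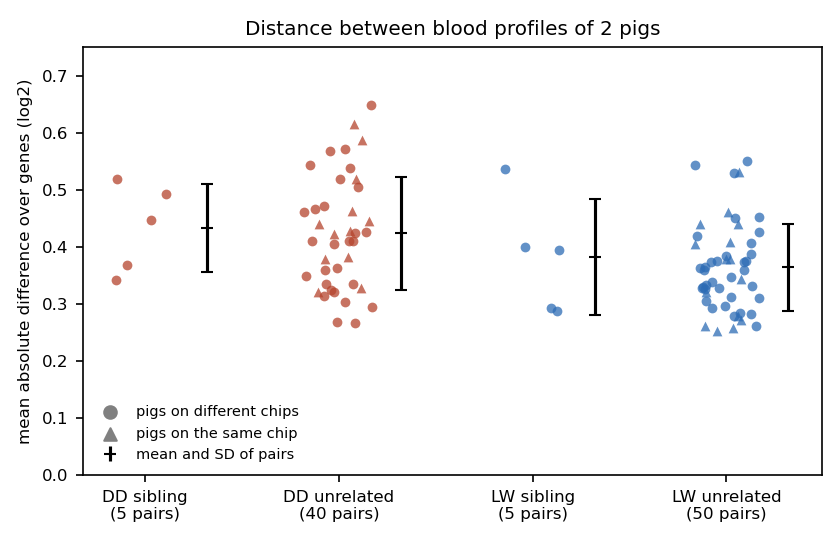
Each point is 1 pair of pigs, and the vertical axis is the mean absolute difference of chip-corrected log2 intensity over 11341 genes. Circles are pairs on different chips, triangles pairs on the same chip, and bars give the mean and SD of the pairs. The 5 littermate pairs of each breed lie within the range of the unrelated pairs.

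The closest littermates were LW_12 and LW_24, at 0.287, and LW_04 and LW_09, at 0.293. The most distant were LW_07 and LW_18, at 0.537, and DD_16 and DD_19, at 0.518. Ranked against all pigs of the breed, the littermate was the nearest profile for 2 of 20 pigs, DD_06 and LW_24, and the farthest for 3, DD_08, DD_19 and LW_18. The median rank of the littermate was 5 of 9 other pigs in DD and 5.5 of 10 in LW. Array brightness (log2, at the 75th percentile of processed signals) differed by 0.631 between littermates and by 0.514 between unrelated pigs (two-sided exact permutation, p = 0.206). Over the 100 pairs, which share pigs, the difference in brightness and the profile distance had a correlation of r = 0.64. Among the littermate pairs, those that differed most in brightness were DD_08 with DD_21, by 1.23, and LW_07 with LW_18, by 1.09. The part of brightness in the profile distances was not tested.

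Gene by gene, the mean absolute difference of the 10 littermate pairs was divided by that of the unrelated pairs. A ratio below 1 means that littermates were closer. The ratio was below 1 for 4344 of 11341 genes (38.3%), for 4825 in DD (42.5%), for 4300 in LW (37.9%) and in both breeds at once for 1925 (17.0%). The median ratio was 1.05, and the mean of this median over all pairings was 1.01 (two-sided exact permutation, p = 0.361). The central 95% of pairings lay between 0.931 and 1.09. This value changed when the arrays of a chip were left out, which also left out littermate pairs. Without chip 3, which left 4 littermate pairs, the median ratio was 0.866, without chip 1 it was 0.994, and without chip 2 it was 1.34. The last left only DD_08 with DD_21 and LW_07 with LW_18, the 2 littermate pairs that differed most in brightness. The part of chip in these values was not tested. The median was 1.05 in DD (p = 0.565 by exact permutation over 216 pairings) and 1.08 in LW (exact p = 0.644). The difference between the breeds, LW minus DD, was 0.032 (two-sided exact permutation, p = 0.917). The consensus correlation of littermates across genes was −0.10.

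**Figure D2:**
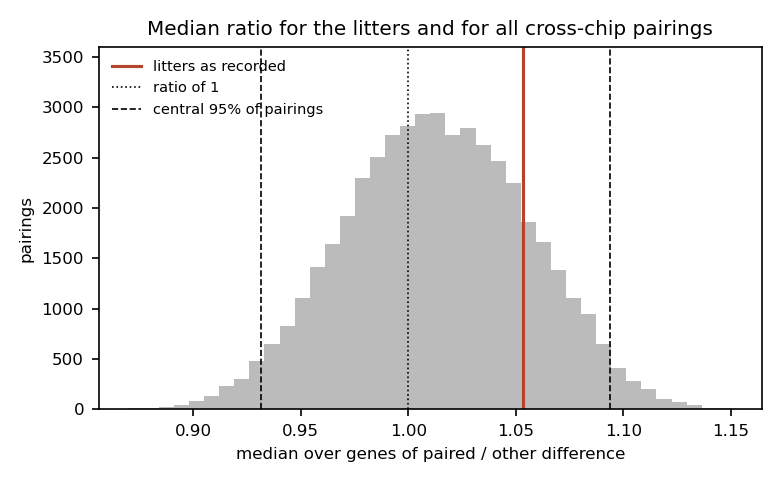
The horizontal axis is the median over genes of the ratio of paired to other differences, and the vertical axis counts the 46656 pairings of pigs on different chips. The red line at 1.05 marks the recorded litters, the dotted line a ratio of 1, and the dashed lines at 0.931 and 1.09 the central 95% of pairings. The recorded litters lie inside that range.

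Single genes were tested with limma. For each gene, the moderated F compared the spread between litters of a breed with the spread between littermates, with chip in the model. This F took the litters of both breeds together, so a gene alike in 1 breed alone can have a low p. After Benjamini-Hochberg adjustment over 11341 genes, 0 genes (0.0%) were alike within litters at an adjusted p of 0.05. An unadjusted p below 0.05 was found for 239 (2.11%). In the other direction, 0 genes (0.0%) were less alike between littermates than between litters, and 931 (8.21%) had an unadjusted p below 0.05. By exact permutation of the pairings, 0 genes passed in either direction after adjustment, with 293 (2.58%) and 463 (4.08%) at an unadjusted exact p below 0.05. For the litters of 1 breed, 2 genes were called in DD (0.0176%, with 425 or 3.75% unadjusted) and 1 in LW (0.00882%, with 206 or 1.82% unadjusted). The DD and LW tests shared 1 littermate spread, estimated over the pairs of both breeds. With each breed fitted alone, 0 genes were called in either, and 979 in DD and 260 in LW had an unadjusted p below 0.05. With the shared spread, an unadjusted p below 0.05 in both breeds was found for 35 genes (0.309%). At least 9 of the 10 littermate pairs lay under the median of the unrelated pairs for 48 genes (0.423%).

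The gene called in LW litters was APBB1, which encodes an adaptor protein that binds the tail of the amyloid precursor protein. It lies on chromosome 9 at 3303032 to 3323828 (Sscrofa11.1, as are all gene positions here). In LW pigs the values ran from 9.50 to 12.21, with a median of 10.80. Both pigs of litter 05-15 were high, at 11.44 and 12.21, and so were those of litter 04-09, at 11.04 and 11.28. Both pigs of litter 12-24 were low, at 9.79 and 9.85, and so were those of litter 14-22, at 9.50 and 9.92. LW_07 and LW_18 lay between, at 10.26 and 10.80. Litters were called high or low from these same values, so their separation is not a further result. LW littermates differed by 0.41 on average and unrelated LW pigs by 1.06, a ratio of 0.384 (limma F = 29.1, adjusted p = 0.0217). In DD the ratio was 0.720 and the values ran from 9.84 to 11.18 (limma adjusted p = 0.960). Over both breeds the adjusted p was 0.0656, and 8 of 10 littermate pairs were under the unrelated median. The difference between the breeds was not tested for single genes.

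The call of APBB1 had a small margin. It was lost when any of 8 single pairs was left out, with adjusted p-values up to 0.151 (without LW_05 and LW_15), and held at 0.0210 without LW_07 and LW_18 and 0.0437 without LW_12 and LW_24. Scaling the arrays to their 75th percentile gave 0.144, and fitting LW pigs alone, with 3 residual degrees of freedom, gave 1.00. The gene rests on a single probe, which was well above background on all 21 arrays.
APBB1, probe O13518: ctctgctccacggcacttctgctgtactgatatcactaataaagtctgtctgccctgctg

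The 2 genes called in DD litters each rested on 1 litter. PSP-II, a seminal plasma protein of the spermadhesin family on chromosome 14 at 132274265 to 132281728, was at 7.17 in DD_06 and 7.67 in DD_11. The other 8 DD pigs lay between 2.57 and 4.48. The probe was well above background on those 2 arrays and on none of the other 19. DD littermates differed by 0.72 on average and unrelated DD pigs by 1.98 (ratio 0.362, limma adjusted p = 0.0253). Without DD_06 and DD_11 the unadjusted p was 0.636. With brightness as a covariate the adjusted p was 0.214.

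LOC100621626, a protein-coding gene of the X chromosome at 12224022 to 12247054, was at 6.68 in DD_08 and 6.39 in DD_21. The other 8 DD pigs lay between 3.94 and 5.00. The probe was well above background on the arrays of DD_08, DD_21, LW_05 and LW_12. The DD ratio was 0.392 (limma adjusted p = 0.0253), and without DD_08 and DD_21 the unadjusted p was 0.337. Over 24 alternatives each, the call of PSP-II was lost in 10 and that of LOC100621626 in 13. Both were lost with DD pigs fitted alone (adjusted p = 0.574 by limma), with the ordinary F (0.340 and 0.206), without DD_01 and DD_10 (0.0548), without chip 1 and without any of 4 LW pairs. LOC100621626 was also lost without the fifth LW pair (0.0539), without DD_06 and DD_11 (0.117) and without chip 2 or 3. Both probes are printed because each is the only probe of its gene here, and most arrays put them at background.
PSP-II, probe A_72_P441504: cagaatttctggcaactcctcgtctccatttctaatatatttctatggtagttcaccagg
LOC100621626, probe A_72_P363218: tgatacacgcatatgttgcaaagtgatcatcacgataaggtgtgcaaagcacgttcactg

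In 3 further dim genes a DD litter lay above the other DD pigs. COPG, named on the array as a coatomer subunit, was at 6.02 and 6.05 in DD_08 and DD_21 and between 3.64 and 5.00 in the other DD pigs (limma adjusted p = 0.112 in DD). Its probe was well above background in DD_08 and DD_19 and not in DD_21. FBXW11, a substrate receptor of a ubiquitin ligase on chromosome 16, was at 5.33 and 6.31 in DD_13 and DD_23 and at most 4.40 in the other DD pigs (adjusted p = 0.960). LOC100519918, a long noncoding RNA gene on chromosome 12, was at 6.41 and 6.29 in DD_16 and DD_19. It was also at 6.52 and 6.61 in LW_07 and LW_18, and its adjusted p over both breeds was 0.271. In LW pigs LOC100519918 ran from 1.98 to 6.61, with 5 LW arrays and 2 DD arrays well above background, the LW ones being those of LW_02, LW_05, LW_07, LW_14 and LW_18.

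**Figure D3:**
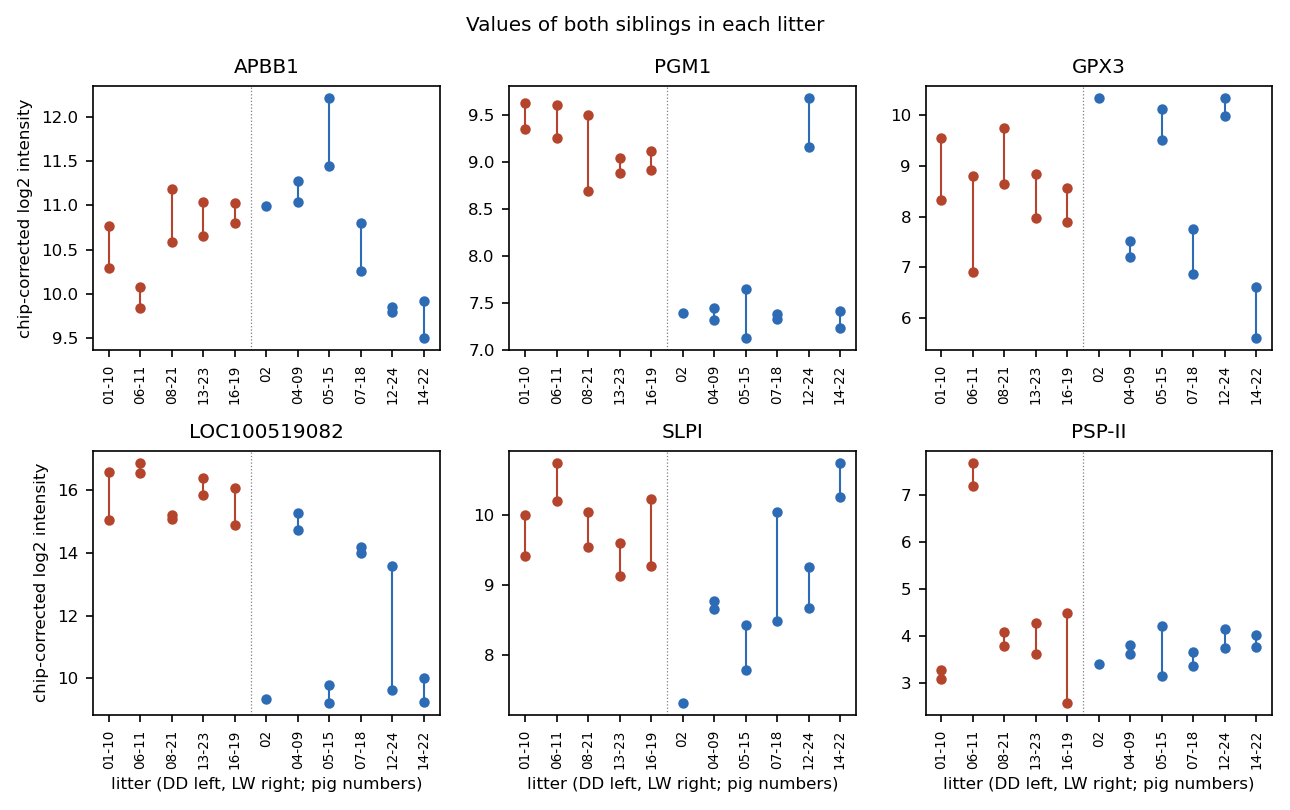
Each panel is 1 gene, the horizontal axis gives the litters by pig number with DD in red on the left and LW in blue on the right, and the vertical axis is the chip-corrected log2 intensity. Littermates are joined by a line. PGM1 stands apart in LW litter 12-24 alone, PSP-II in DD litter 06-11 alone, and LOC100519082 is split within LW litter 12-24.

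The other genes with a low p in LW litters did not pass the adjustment. They are described because in several of them whole LW litters lay on 1 side of a wide gap. PGM1, the phosphoglucomutase that links glycogen to glycolysis (chromosome 6, 148851183 to 148918891), was at 9.69 and 9.17 in LW_12 and LW_24. The other 9 LW pigs lay between 7.12 and 7.65. All 10 DD pigs were between 8.69 and 9.63. The ratio was 0.336 in LW and 0.921 in DD (limma adjusted p = 0.0801 in LW and 0.960 in DD). The adjusted p in LW was 0.0270 with the brightness covariate and 0.0427 without LW_02. Without LW_12 and LW_24 the unadjusted p was 0.949, so the low p rested on that litter.

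The probes of PGM1 did not move together. The array holds 4 of them with 3 different sequences. The capitals below mark the 55 bases that A_72_P233607 shares with O5322, whose sequence is on the array as 2 probes. A_72_P108441 shares no such run with them.
PGM1, probe A_72_P233607: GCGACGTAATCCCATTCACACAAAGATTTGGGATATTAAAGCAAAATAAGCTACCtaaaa
PGM1, probe O5322: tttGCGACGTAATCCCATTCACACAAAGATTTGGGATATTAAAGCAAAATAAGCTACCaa
PGM1, probe A_72_P108441: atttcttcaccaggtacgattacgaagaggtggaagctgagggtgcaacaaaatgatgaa
The overlapping probes had LW ratios of 0.430 and 0.484, and A_72_P108441 had 1.17. On O5322, LW_12 and LW_24 were at 10.21 and 9.34 and the other LW pigs between 6.88 and 7.71. On A_72_P108441 the same 2 pigs were at 7.41 and 7.82, inside the range of the others, 6.29 to 8.32. The litter pattern of PGM1 was thus seen on the overlapping sequences and not on A_72_P108441. Littermates LW_04 and LW_09 were at 7.43 and 6.88 on O5322 and in the opposite order on A_72_P108441, at 6.84 and 8.32. Averaging the probes brought them closer than on either probe. The LW ratio of the average, 0.336, was below those of the printed sequences and partly reflects this averaging.

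GPX3, the glutathione peroxidase secreted into plasma (chromosome 16, 71980467 to 71989011), split the LW litters into a high and a low set. LW_12 and LW_24 were at 10.34 and 9.99, LW_05 and LW_15 at 9.50 and 10.13, and LW_02 at 10.33. LW_04 and LW_09 were at 7.52 and 7.19, LW_07 and LW_18 at 7.75 and 6.86, and LW_14 and LW_22 at 5.61 and 6.62. No LW pig lay between 7.75 and 9.50, and all 5 LW littermate pairs fell on the same side. GPX3 was named for its low p in LW litters and the sets were read from these same values. The gap and the count of pairs are therefore not further results. Littermates differed by 0.64 and unrelated LW pigs by 2.17 (ratio 0.294, limma adjusted p = 0.105). In DD the values ran from 6.91 to 9.74 without such a gap, and the ratio was 1.24.

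Here too the probes differed. The array holds 7 GPX3 probes with 6 sequences, and the capitals mark the 24 bases shared by 3 of them, of which A_72_P036051 is present as 2 probes.
GPX3, probe A_72_P036051: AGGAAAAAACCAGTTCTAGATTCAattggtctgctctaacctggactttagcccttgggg
GPX3, probe A_72_P440086: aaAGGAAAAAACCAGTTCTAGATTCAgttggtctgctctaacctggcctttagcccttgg
GPX3, probe A_72_P671275: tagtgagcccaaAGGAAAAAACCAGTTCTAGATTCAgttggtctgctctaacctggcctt
GPX3, probe A_72_P666610: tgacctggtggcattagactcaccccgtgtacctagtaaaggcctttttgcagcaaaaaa
GPX3, probe A_72_P637182: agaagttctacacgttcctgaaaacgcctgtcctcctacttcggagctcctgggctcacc
GPX3, probe O9216: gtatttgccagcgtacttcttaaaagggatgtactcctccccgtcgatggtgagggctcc
The 3 overlapping sequences had LW ratios of 0.190, 0.237 and 0.161. On A_72_P671275 the high LW pigs lay between 9.37 and 10.48 and the low ones between 4.88 and 6.63. A_72_P666610 had a ratio of 0.482 and split the LW pigs at the same place, with the high ones from 12.33 to 13.59 and the low ones from 5.14 to 9.68. Littermates LW_14 and LW_22 differed on it, at 5.14 and 9.45. A_72_P637182 (ratio 0.857) held all LW pigs between 9.01 and 10.88. O9216 (ratio 0.932) held them between 4.96 and 6.14, inside the range of the low pigs on A_72_P671275. The strand that O9216 reads was not tested, so its lack of a split cannot be read as one of GPX3 RNA. It is part of the average of the 7 probes. Taking the brightest probe of each gene in place of the average left GPX3 with an adjusted p of 0.480 in LW. Without LW_07 and LW_18 it was 0.0231, and without LW_14 and LW_22 it was 0.689.

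**Figure D4:**
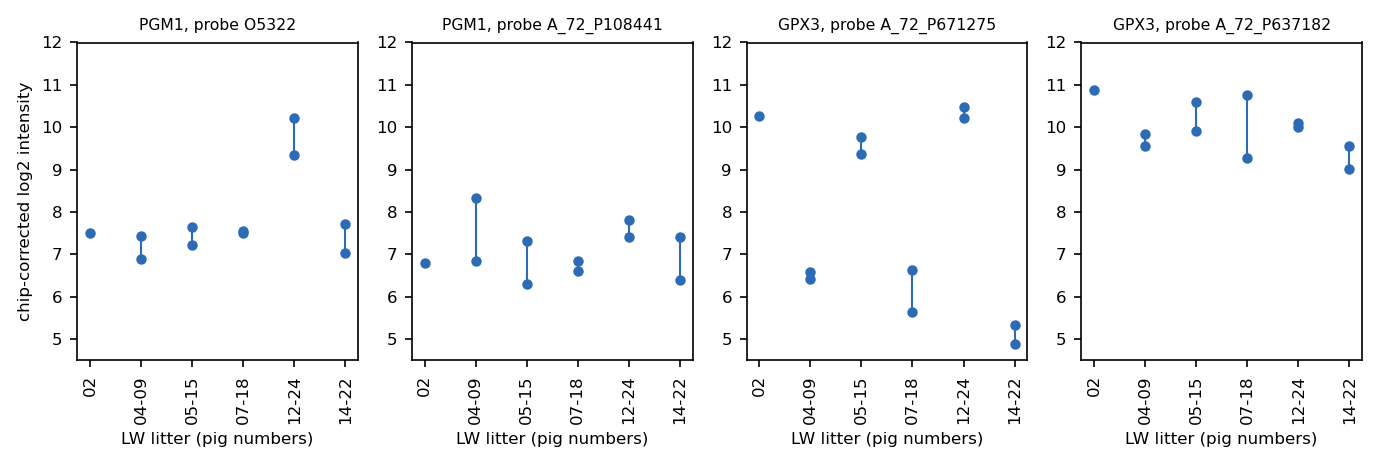
Chip-corrected log2 intensity of the 11 LW pigs by litter, for 2 probes of PGM1 and 2 of GPX3, with littermates joined by a line and all panels on 1 vertical scale. Litter 12-24 stands apart on O5322 and not on A_72_P108441, and the LW litters separate on A_72_P671275 and not on A_72_P637182.

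LOC100519082, a protein-coding gene at the start of chromosome 2 (152490 to 154732), was present at 2 levels in LW pigs. LW_04 and LW_09 were at 14.72 and 15.27, and LW_07 and LW_18 at 14.18 and 13.99. LW_05 and LW_15 were at 9.22 and 9.79, LW_14 and LW_22 at 10.02 and 9.25, and LW_02 at 9.33. LW_12 and LW_24 were split, at 9.62 and 13.59. So 4 of the 5 LW littermate pairs shared a level and 1 did not. The levels were read from these same values, so this count is not a further result. All DD pigs were at the high level, from 14.88 to 16.88. The LW ratio was 0.397 (limma adjusted p = 0.275), and without LW_12 and LW_24 the adjusted p was 5.29e-05. Without LW_04 and LW_09 it was 1.00. Its 2 probes have 1 sequence and count as 1 measurement.
LOC100519082, probe A_72_P402708: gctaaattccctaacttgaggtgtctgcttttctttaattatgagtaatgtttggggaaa

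SLPI, the secretory leukocyte peptidase inhibitor that protects tissue from neutrophil elastase (chromosome 17, 47595804 to 47598364), had a gradient across LW litters. LW_14 and LW_22 were highest, at 10.27 and 10.75, and LW_02 was lowest, at 7.32. LW_07 and LW_18 differed most, at 10.04 and 8.49. Littermates differed by 0.68 and unrelated LW pigs by 1.27 (ratio 0.532, limma adjusted p = 0.275). The DD ratio was 1.02. All 7 SLPI probes had LW ratios below 1, from 0.493 to 0.675, although 3 of them share 39 bases.

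Among the remaining genes of the 15 with the lowest p over both breeds, adjusted p-values ran from 0.740 to 1.00. COL16A1, a fibril-associated collagen chain on chromosome 6, had a ratio of 0.412, and 9 of its 10 littermate pairs lay under the unrelated median. Its littermates differed by 0.31 ± 0.29 (SD, n = 10 pairs) against 0.76 between unrelated pigs (limma adjusted p = 0.740). LW_05 and LW_15 were the highest LW pigs, at 7.19 and 8.05, with the other LW pigs at most 6.68. NPR3, the clearance receptor of natriuretic peptides on chromosome 16, was at 7.67 and 7.60 in LW_05 and LW_15 and at 7.49 and 7.10 in LW_14 and LW_22. The other LW pigs lay between 5.54 and 6.47, and the LW ratio was 0.302. In DD the ratio was 0.941, and DD_06 and DD_11 lay apart at 6.62 and 5.36.

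CD59, the membrane inhibitor of the complement attack complex on chromosome 2, was at 7.62 and 7.88 in LW_14 and LW_22, 7.01 and 7.26 in LW_07 and LW_18, and 7.81 in LW_02. The other 6 LW pigs were at most at 6.35. The LW ratio was 0.406 (limma adjusted p = 0.381), and the 4 probes of CD59 had ratios between 0.374 and 0.501. NPM2, a histone chaperone of the egg on chromosome 14, was at 9.99 and 9.45 in LW_14 and LW_22 and at most 8.64 elsewhere, with 8.64 in LW_15 and 6.24 in its littermate LW_05. NSMCE4A, a subunit of a DNA repair complex on the same chromosome, was highest in LW_12 and LW_24, at 8.39 and 8.02. NCOA7, a nuclear receptor coactivator on chromosome 1, had a DD ratio of 0.301 and an LW ratio of 0.766, and 9 of 10 littermate pairs lay under the unrelated median.

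NPY, the precursor of neuropeptide Y on chromosome 18, had the lowest exact p of any gene named here apart from TPMT. DD_06 and DD_11 were at 6.04 and 6.23, and the other DD pigs between 6.62 and 7.58. DD littermates differed by 0.20 and unrelated DD pigs by 0.68 (ratio 0.289), and 9 of 10 pairs over both breeds lay under the unrelated median (exact permutation p = 0.000257, limma adjusted p = 0.960 in DD). TPMT, the thiopurine methyltransferase on chromosome 7, had ratios of 0.510 in DD and 0.486 in LW (exact permutation p = 0.000171, limma adjusted p = 1.00). Both fail the adjustment over all genes. TPMT's 5 probes were dim, and its DD pigs lay within 4.12 to 4.80.

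The 5 genes with the lowest p of the limma F for being less alike were AVP (the vasopressin precursor), SERPINA3-2 (an acute phase protease inhibitor), API5 (an apoptosis inhibitor), RAB24 (a small GTPase of autophagy) and SLC13A5 (the citrate transporter of the plasma membrane). Their ratios ran from 1.23 to 1.51, and other genes had higher ratios. Littermates of API5 were 1.51 times as far apart as unrelated pigs, and 2 of 10 pairs lay under the unrelated median. None passed the adjustment (limma adjusted p = 0.189 each). All of them varied little or were dim. AVP lay between 17.52 and 17.99 in all pigs, API5 between 7.36 and 7.90 and RAB24 between 7.39 and 7.74, while SERPINA3-2 was well above background on 1 array. AVP was measured by 1 of its 2 probes and SERPINA3-2 by 1 of its 3, the others being removed as dim. The bright AVP probe and the removed one were thus far apart in level. Which of them reads AVP RNA was not tested.

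The 20 lists of blood cell and pathway genes were read against the background of 2.11% of all genes alike and 8.21% less alike at an unadjusted p below 0.05, and against the median ratio of 1.05. Of the genes in these lists, 0 passed the adjusted threshold in either direction over both breeds. The lowest median ratio was that of erythroid genes, at 0.828, with 20 of 27 below 1. Of these 27, 5 had an unadjusted p below 0.05 for being alike and 0 for being less alike.

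These included CA1 and CA2, carbonic anhydrases of red cells, EPB41, a protein of the red cell membrane skeleton, and ALAD, an enzyme of haem synthesis. CA1 had a ratio of 0.555, with littermates 0.57 ± 0.55 apart (SD, n = 10 pairs) and unrelated pigs 1.02 apart. Its values were lowest in LW_12 and LW_24, at 8.39 and 8.30, and its 5 probes, which have 3 sequences, had LW ratios between 0.599 and 0.643. EPB41 had a ratio of 0.728, CA2 of 0.718 and ALAD of 0.840. AHSP, the alpha haemoglobin stabilizing protein, was at 0.759, and HBB, the beta globin, at 1.15. By breed, the median of the list was 0.693 in DD and 1.07 in LW.

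The mean log2 level over the 27 erythroid genes was 10.11 and 10.24 in DD_06 and DD_11, the lowest of the DD pigs, and 11.19 and 11.11 in DD_08 and DD_21, the highest. The other DD pigs lay between 10.47 and 10.99. In LW it was 9.94 in both LW_12 and LW_24, against 11.10 and 10.36 in LW_07 and LW_18. The lowest LW pig was LW_22, at 9.90, with its littermate LW_14 at 10.25. LW_05 and LW_15 were at 9.97 and 10.61, and LW_04 and LW_09 at 10.08 and 10.49. The low ratio leaned on litter 06-11. Without DD_06 and DD_11 the median of the list was 1.00, with 13 of 27 genes below 1 and 2 at an unadjusted p below 0.05. All genes then had a median of 1.09, with 3641 of 11341 below 1 and 175 at an unadjusted p below 0.05. The median of the list ran from 0.764 to 0.869 when any other pair was left out. With brightness as a covariate it was 0.898, against 1.01 for all genes.

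**Figure D5:**
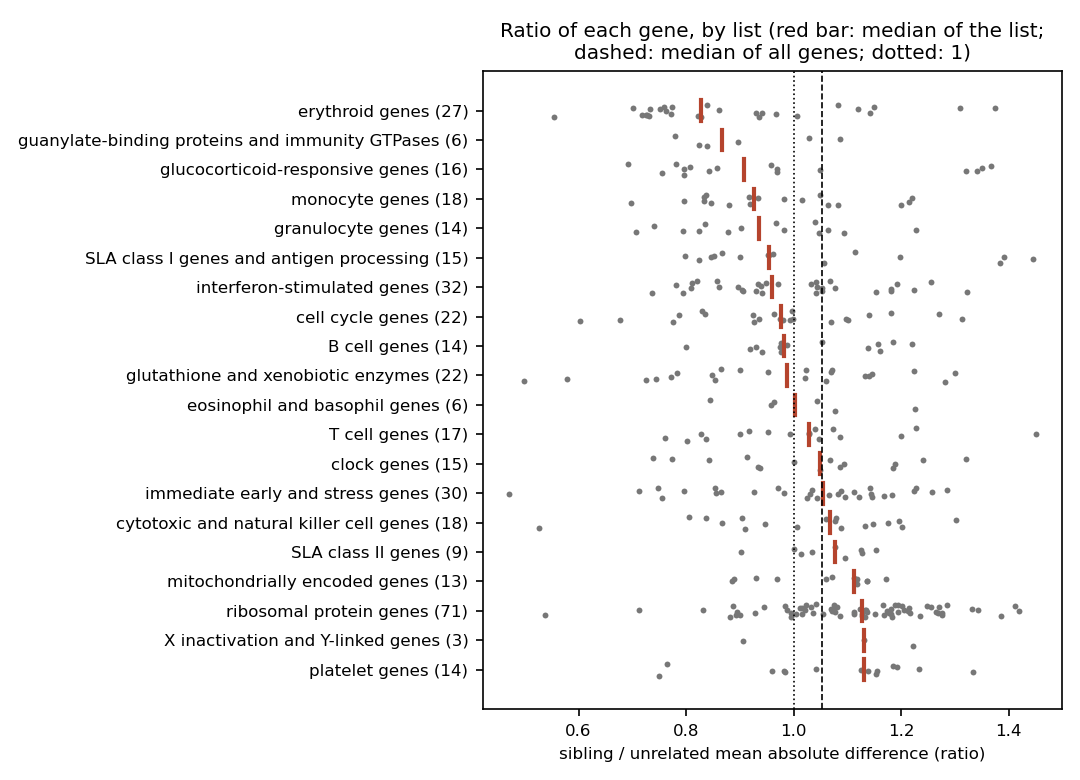
Each point is the ratio of 1 gene, sorted by list on the vertical axis with the number of genes tested in brackets. Red bars are list medians, the dashed line is the median of all genes at 1.05 and the dotted line is 1. Erythroid genes have the lowest median, at 0.828, and platelet genes, the 3 X inactivation and Y-linked genes and ribosomal protein genes the highest, near 1.13.

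Ribosomal protein genes, which encode the core of the translation machinery, had a median ratio of 1.13, with 57 of 71 above 1. Of the 71, 9 had an unadjusted p below 0.05 for being less alike and 0 for being alike. RPL24 had a ratio of 1.41 and RPL9 of 1.33. RPL37 stood out on the other side, at 0.538. The count of 9 fell to 0 without LW_07 and LW_18, whose mean over the list was 12.55 and 12.92, and rose to 17 without DD_01 and DD_10. Over all genes the same counts went from 931 to 296 and to 1309. Without chip 3 the median of the list was 0.883, and that of all genes 0.866.

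The medians of white cell lists lay on both sides of that of all genes. Granulocyte genes had a median ratio of 0.935 (14 tested), monocyte genes 0.927 (18), B cell genes 0.982 (14), T cell genes 1.03 (17), cytotoxic and natural killer cell genes 1.07 (18) and eosinophil and basophil genes 1.00 (6). Platelet genes were at 1.13 (14). Each of the granulocyte, monocyte and cytotoxic lists had 1 gene alike at an unadjusted p below 0.05. These were MMP9, the gelatinase of neutrophil granules (ratio 0.706), CD163, the haemoglobin scavenger receptor (0.796), and GZMK, a granzyme of T and natural killer cells (0.526). GZMK was at 10.07 and 10.37 in DD_06 and DD_11, and the other DD pigs lay between 8.96 and 9.74.

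The swine leukocyte antigen complex, for which DD pigs carry 1 haplotype, presents peptides to T cells and varies widely between outbred pigs. Class I and antigen processing genes had a median ratio of 0.925 in DD and 1.17 in LW (15 tested), and class II genes 1.22 in DD and 1.00 in LW (9 tested). Over both breeds none of the 24 was alike at an unadjusted p below 0.05. For DD litters, PSMB9, a subunit of the immunoproteasome, had an unadjusted p of 0.0366 by limma. SLA-DQA1, a class II alpha chain, had an LW ratio of 0.566 (unadjusted p = 0.0998 by limma in LW).

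The 13 genes of the mitochondrial genome, which littermates inherit from 1 dam, had a median ratio of 1.11, and over both breeds none was alike at an unadjusted p below 0.05. COX2, a subunit of cytochrome c oxidase, had an unadjusted p of 0.0362 by limma for LW litters. Interferon-stimulated genes were at 0.959 (32 tested), with ZBP1, a sensor of nucleic acids, alike at an unadjusted p of 0.0428. Guanylate-binding proteins and immunity GTPases were at 0.867 (6), and GBP4 had an unadjusted p of 0.0336. For DD litters, 3.75% of all genes had an unadjusted p below 0.05 for being alike. So did 7 of 32 interferon-stimulated genes and 3 of 6 guanylate-binding proteins and GTPases. The same held for 10 of 27 erythroid, 3 of 14 granulocyte and 3 of 18 cytotoxic genes. The median DD ratio was 0.995 for interferon-stimulated genes, 0.795 for guanylate-binding proteins and GTPases and 0.693 for erythroid genes. It was 0.874 for granulocyte and 1.09 for cytotoxic genes, against 1.05 for all genes. For LW litters, against 1.82% of all genes, the counts of these lists were 1, 0, 4, 0 and 2 in the same order. Both breeds were set against 1 shared littermate spread. The difference between the breeds was not tested for these counts.

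Handling, stress and time of day could also be shared by a litter. Glucocorticoid-responsive genes had a median ratio of 0.907 (16 tested), immediate early and stress genes 1.06 (30) and clock genes 1.05 (15). KLF4, an immediate early transcription factor, had a ratio of 0.471, and 9 of 10 littermate pairs were under the unrelated median (limma unadjusted p = 0.0257). NFKBIA, the inhibitor of NF-kappa-B and a member of both former lists, was at 0.796 and NPAS2, a clock transcription factor, at 1.00. Cell cycle genes were at 0.977 (22), glutathione and xenobiotic enzymes, which hold GPX3 and TPMT, at 0.987 (22), and the X inactivation and Y-linked list at 1.13 (3). MCM6, a subunit of the replicative helicase, had an unadjusted p of 0.0242.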

How the data were processed

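One-colour arrays measured blood RNA of 10 DD and 11 LW pigs. The members and gene lists were chosen with earlier results of these data known. The authors deposited scanner intensity values (Agilent Feature Extraction 10.7.3.1, per the labels). They also deposited log2 values, made by normexp background correction and quantile normalization, with 3 outlier arrays removed. This log2 matrix was the main input. Intensities served for brightness, background flags and alternatives.

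Of 60305 probes, 28693 were named and gave 13253 genes. Names came from the scanner files' symbols and accessions, matched to RefSeq (Sscrofa11.1), which gave the positions. The 25% of probes with the lowest mean were removed and the probes of a gene averaged (11341 genes). The other probes have no gene name here.

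The groups came from the labels, and litters and chips from the study's list of animals. The litter F (limma lmFit and eBayes, upper tail alike, lower tail less alike) had 9 litter terms within breed, chip as covariate and 8 residual degrees of freedom, with Benjamini-Hochberg adjustment. Ratios used values after removeBatchEffect for chip. Pairings joined pigs of the same breed on different chips. Named genes are the 15 with the lowest p over both breeds, 5 each for DD, LW and less alike, and 2 of each list. RPL24, RPL9, AHSP, HBB, CA2 and ALAD were named after their values were seen, and 1 gene is not reported here. Alternatives were re-processed intensities (normexp, offset 0 or 50), 75th percentile scaling, other filters and probe rules, a brightness covariate, no chip term, other variance estimates, each breed alone, leaving out pigs, pairs or chips, exact pairings, single probes, squared differences and cross-chip unrelated pairs. The litter test was tested on simulated data. Tools were R 4.3.3, limma 3.58.1, statmod 1.5.0, Python 3.11.15, numpy 2.4.6, pandas 2.3.3 and matplotlib 3.10.9.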

Additional observations from a re-analysis of the deposited data

Results flagged for a closer look

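Over 65 groups of values examined for a value far from the rest, 3 stood apart, where chance flags about 1 in 20. For single genes, only values of the named genes in DD pigs were examined, and those of LW pigs were not. In DD pigs, NPR3 was at 5.364 in DD_11 while its littermate DD_06 was at 6.62. OAS1, an interferon-induced antiviral enzyme, was at 14.0 in DD_06. CCR3, the eotaxin receptor of eosinophils and basophils, was at 9.85 in DD_21.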

How the results depend on the processing

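The counts of called genes were small and changed with the processing, and no cause of a change was tested. Genes alike over both breeds, 0 as reported, numbered 2 from re-processed intensities, 3 with a normexp offset of 50, and 1 each with no chip term, without LW_02, with a trended and robust variance and with the ordinary F. Without chip 2, which leaves 1 residual degree of freedom, 49 were alike and 7090 less alike. DD calls, 2 as reported, were 0 among probes above background, with the ordinary F, with DD alone and without chip 1, 1 with the brightness covariate and 20 without chip 2. LW calls, 1 as reported, were 0 with 75th percentile scaling, with LW alone and without chip 1 or 3, 2 with the offset of 50, the brightness covariate, the trended variance and without LW_02, and 36 without chip 2. Leaving out 1 littermate pair at a time gave 0 to 2 genes alike, 0 to 1 less alike, 0 to 2 in DD and 0 to 3 in LW.

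The median ratio lay on the other side of the mean of its pairings with no chip term (1.04), without chip 1 (0.994), without chip 3 (0.866) and without LW_07 and LW_18 (0.996), and ran from 0.996 to 1.09 without single pairs. Without LW_07 and LW_18, 556 genes had an unadjusted p below 0.05 for being alike and 296 for being less alike, against 239 and 931. The breed difference of the ratio, 0.032 as reported, was −0.077 with the brightness covariate and −0.13 without chip 1, and ran from −0.055 to 0.12 without single pairs. The consensus correlation was −0.027 with the brightness covariate, −0.035 with no chip term, −0.56 without chip 2 and 0.26 without chip 3, and ran from −0.21 to 0.027 without single pairs. Without chip 1 or 3 only 4 pairings exist, and without chip 2 only 1, so those ratios have no usable test. The 3 called genes lost their calls in 36 of 73 alternatives (APBB1 in 13 of 25, PSP-II in 10 of 24, LOC100621626 in 13 of 24). Tests of named genes that missed the threshold as reported passed it in 29 cases. No paired analysis was possible because the breeds share no replicate numbers.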

Other observations

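Among 45228 single probes, 21337 of them without a gene name here, 1 was called in LW litters (A_72_P284079, no gene name, limma adjusted p = 0.0137). It was at 0.83 in LW_02, the pig with no littermate, and at 3.64 or more in all other pigs. LW_02 counted as a litter of its own in that test, so its low value entered the spread between litters. The probe was not well above background on any array.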
